A study of Saccharomyces cerevisiae and Saccharomyces paradoxus with 16 samples.

Results

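Cryptic unstable transcripts (CUTs) that were faint in WT cells and far more abundant in *rrp6*Δ cells were described here in 4 yeast strains. A CUT was taken when its average WT coverage was above 0 and below 5 and when its ratio, (*rrp6*Δ coverage + 1) / (WT coverage + 1), was 10 or more. Of the 9377 CUTs annotated in all strains, 436 met this rule, and they are called faint CUTs below. The name is short for faint and strongly raised. Most other CUTs were as faint in WT cells, and it was the ratio that set the members apart. Coverage is the number of reads over a nucleotide, scaled to 10000000 mapped reads and averaged over the nucleotides of the CUT. Members were chosen by these 2 coverages, so coverages and ratios of the members are given as a description and without a test.

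The series has 16 stranded poly(A) RNA-seq libraries, 2 of *rrp6*Δ and 2 of WT cells for each strain, from mid-log cultures in YPD at 30 °C. The S288c cells were *rrp6*::KanMX, *his3delta1*, *leu2delta0*, *ura3delta0*, *met15delta0*, and their WT cells were *his3delta1*, *lys2delta0*, *leu2delta0*, *ura3delta0*. In Σ1278b the mutant cells carried *rrp6*::KanMX, *his3delta1*, *leu2delta0* and *ura3delta0*, and the WT cells carried *ura3-52*, *leu2*::hisG and *his3*::hisG. JAY291 was *rrp6*::KanMX or WT. N17, the *S. paradoxus* strain, was HO::lox-Kan-lox in both arms, with *rrp6*::NatMX in the mutant. The other strains are *S. cerevisiae*. By the study's strain list the mutant and WT cells of S288c and Σ1278b also differ in mating type (MATa against MATα), while JAY291 is MATa and N17 is MATα in both arms. The 2 replicates were averaged before deposition, so no single value has a replicate error and the depth behind it was not used here. The level of *RRP6* itself was not analysed here. By the labels the N17 poly(A) RNA was selected in another way than the RNA of replicate 1 of the other strains, so species and preparation cannot be told apart in a comparison of strains.

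CUTs are RNA polymerase II transcripts that arise mainly from the nucleosome-free regions at the borders of genes. Their transcription is ended by the Nrd1-Nab3-Sen1 complex, whose RNA-binding subunits recognise short motifs in the nascent RNA, and the nuclear exosome then degrades them after the TRAMP complex has added a short poly(A) tail. Rrp6 is the exonuclease that is found only on the nuclear form of the exosome, and without it such RNAs accumulate.

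Sequence could be read only for S288c, whose coordinates fit assembly R64. Shown are the first 100 nt, 5′ to 3′ on the strand of the CUT, of 5 S288c faint CUTs, taken from the 10 of highest ratio among those without the chrXII label, which also holds CUTs of chromosome XIII: the 3 with the highest ratio, the one with as many motif matches as the first, and the one that lies over an mRNA. Capitals mark the Nrd1 motifs GTAA and GTAG and the Nab3 motifs TCTT and CTTG, written as DNA, and TCTTG holds both Nab3 motifs in overlap.
CUT1953, chrXIV:500510-500609, plus strand: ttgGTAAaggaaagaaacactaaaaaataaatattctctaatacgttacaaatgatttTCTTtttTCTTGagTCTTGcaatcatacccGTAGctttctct
CUT1865, chrVII:739622-739721, minus strand: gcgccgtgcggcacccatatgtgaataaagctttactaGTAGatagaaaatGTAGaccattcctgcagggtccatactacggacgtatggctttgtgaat
CUT1949, chrVIII:69996-70095, minus strand: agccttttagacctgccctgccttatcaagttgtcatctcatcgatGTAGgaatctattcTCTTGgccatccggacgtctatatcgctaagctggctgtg
CUT1906, chrIV:784592-784691, minus strand: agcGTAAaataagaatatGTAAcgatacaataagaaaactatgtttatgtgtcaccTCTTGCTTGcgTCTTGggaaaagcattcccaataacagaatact
CUT1734, chrII:473886-473985, minus strand: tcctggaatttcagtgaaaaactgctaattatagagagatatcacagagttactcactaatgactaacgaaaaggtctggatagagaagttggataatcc

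CUT1953 and CUT1906 held 7 matches each in this window, CUT1949 held 3, CUT1865 held 2 and CUT1734 held 0. The matches of CUT1953 include 3 of TCTT and those of CUT1906 include 3 of CTTG. A match is a description of the letters and not evidence of binding.

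CUTs that met the whole rule were few in S288c and more frequent in the other strains. S288c had 28 among 2055 CUTs (1.36%), Σ1278b had 108 among 2393 (4.51%), JAY291 had 150 among 2268 (6.61%) and N17 had 150 among 2661 (5.64%). These shares are fixed by the rule and carry no test. Most CUTs met the WT limit, and among those with WT coverage above 0 and below 5 the ratio reached 10 for 28 of 1854 in S288c, 108 of 2152 in Σ1278b, 150 of 1963 in JAY291 and 150 of 2114 in N17. A ratio of 10 or more at a WT coverage of 5 or more was found for 6, 5, 10 and 59 CUTs in S288c, Σ1278b, JAY291 and N17. N17 therefore had the largest count of strongly raised CUTs above the WT limit. How many CUTs of any ratio had a WT coverage of 5 or more was not taken, so these counts are not set against a background. At a WT coverage of 0, the ratio was 10 or more for 1, 0, 8 and 8 CUTs in the same order.

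**Figure D1:**
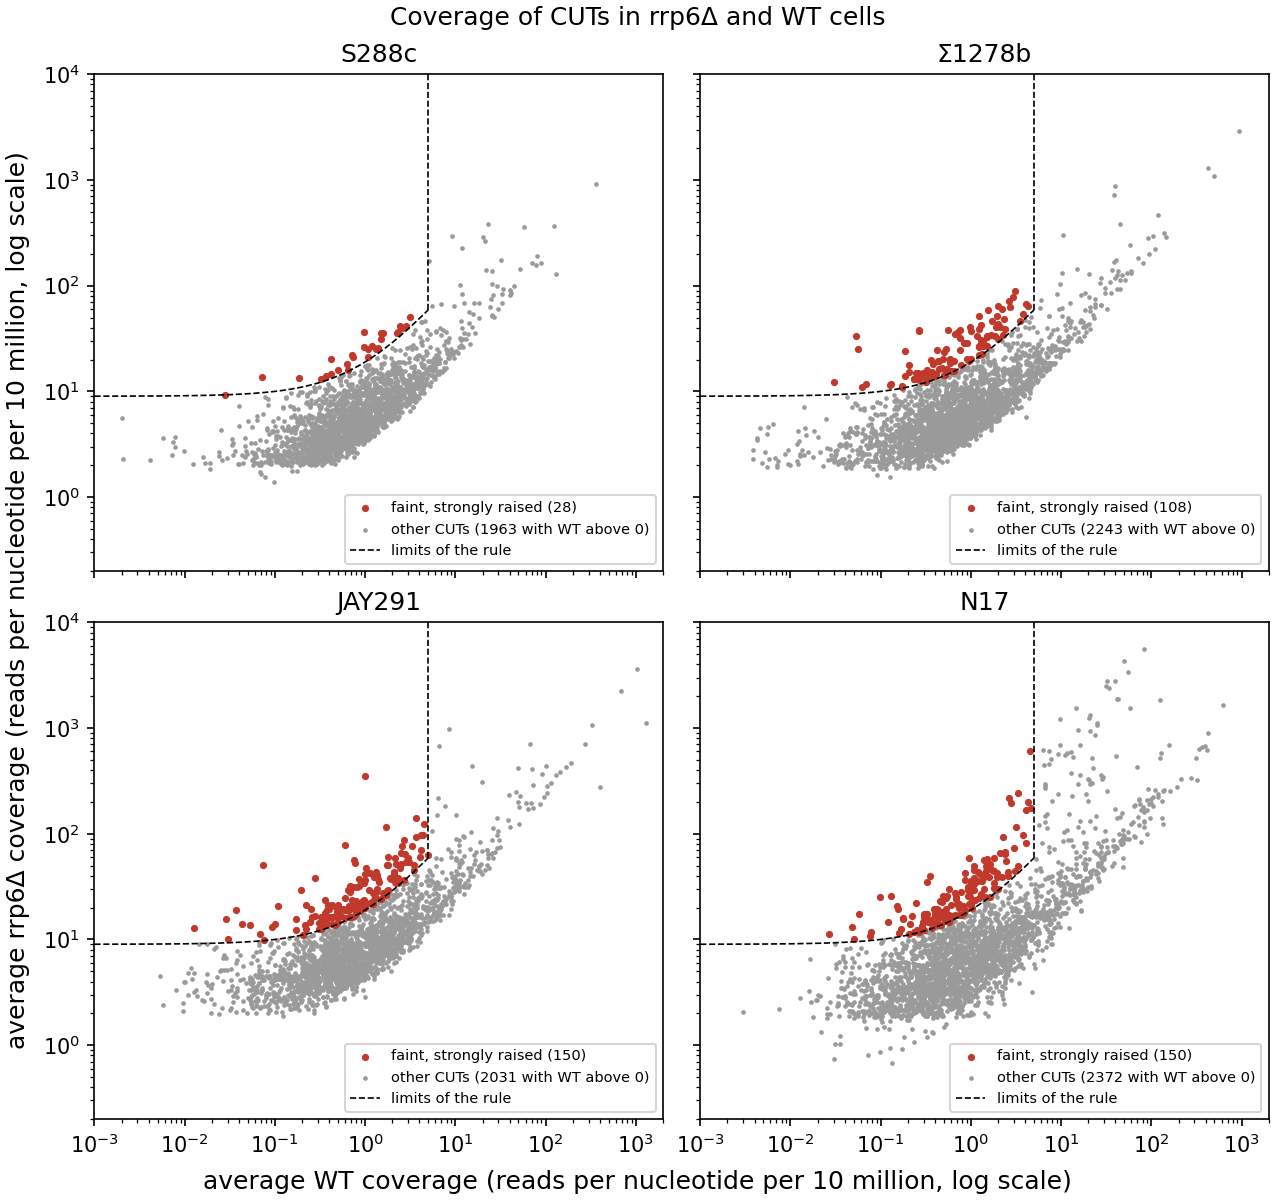
Average *rrp6*Δ coverage (vertical, log scale) against average WT coverage (horizontal, log scale) of every CUT with WT coverage above 0 in each strain, in reads per nucleotide per 10000000 mapped reads, with faint, strongly raised CUTs in red, other CUTs in grey and the limits of the rule dashed. S288c has 28 red points, Σ1278b has 108, and JAY291 and N17 have 150 each, and N17 also has a group of points right of the WT limit and above the ratio of 10.

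The median level of the members was close in the 4 strains, and the strains differed in the upper tail. Median *rrp6*Δ coverage of S288c members was 25.1, that of Σ1278b members 22.3, that of JAY291 members 23.3 and that of N17 members 24.1, and median WT coverage was 1.03, 0.588, 0.782 and 0.737 in the same order. The other CUTs had a median *rrp6*Δ coverage of 5.49, 5.93, 7.06 and 6.15 and a median WT coverage of 0.732, 0.652, 0.697 and 0.748. Members were thus not fainter than other CUTs as a group: their median WT coverage was higher in S288c and JAY291 and lower in Σ1278b and N17. These levels follow from the rule. WT coverage was below 1 for 14 of the 28 members in S288c, 69 of the 108 in Σ1278b, 91 of the 150 in JAY291 and 93 of the 150 in N17. The highest *rrp6*Δ coverage reached by a member was 50.3 (S288c), 88.4 (Σ1278b), 350 (JAY291) and 601 (N17). A ratio of 20 or more was reached by 0, 14, 18 and 27 members.

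The members of highest ratio differed in length and level between strains. In S288c, CUT1953 had a coverage of 36.9 in *rrp6*Δ cells and 0.981 in WT cells (ratio 19.1), CUT1865 had 20.1 in *rrp6*Δ cells and 0.420 in WT cells (14.9), and CUT1949 had 36.1 in *rrp6*Δ cells and 1.51 in WT cells (14.8). In Σ1278b, the 247-nt CUT4254 had 33.4 in *rrp6*Δ cells and 0.0534 in WT cells (32.7), the 143-nt CUT4275 had 38.5 in *rrp6*Δ cells and 0.265 in WT cells (31.2), and the 554-nt CUT4270 had 37.6 in *rrp6*Δ cells and 0.266 in WT cells (30.5). CUT4275 was also the shortest member of its strain. In JAY291, CUT6645, 932 nt long, stood apart with 350 in *rrp6*Δ cells and 1.01 in WT cells (175). It was followed by CUT6601 with 77.4 in *rrp6*Δ cells and 0.591 in WT cells (49.3) and CUT6552 with 50.5 in *rrp6*Δ cells and 0.0739 in WT cells (48.0). Both lie on contigs where they begin close to the contig start, at bases 105 and 336. In N17, CUT9251 had 601 in *rrp6*Δ cells and 4.50 in WT cells (109), CUT9206 had 219 in *rrp6*Δ cells and 2.68 in WT cells (59.9), and CUT9213 had 245 in *rrp6*Δ cells and 3.35 in WT cells (56.5). The N17 CUTs of highest ratio had WT coverages in the upper part of the allowed range, unlike those of Σ1278b.

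The rule cuts through a continuous range of ratios. Just inside it were CUT1490 (10.05) and CUT1807 (10.3) in S288c, CUT4018 (10.1) and CUT4165 (10.1) in Σ1278b, CUT6703 (10.004) and CUT6499 (10.05) in JAY291, and CUT8674 (10.02) and CUT8631 (10.05) in N17. Just outside it were CUT1753 (9.73) and CUT1740 (9.73) in S288c, CUT3864 (9.98) and CUT3841 (9.93) in Σ1278b, CUT6091 (9.98) and CUT5750 (9.97) in JAY291, and CUT8925 (9.99) and CUT8561 (9.87) in N17. CUT1490 was the faintest S288c member, with 9.33 in *rrp6*Δ cells and 0.0283 in WT cells, whereas CUT1807 had 16.1 in *rrp6*Δ cells and 0.652 in WT cells.

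**Figure D2:**
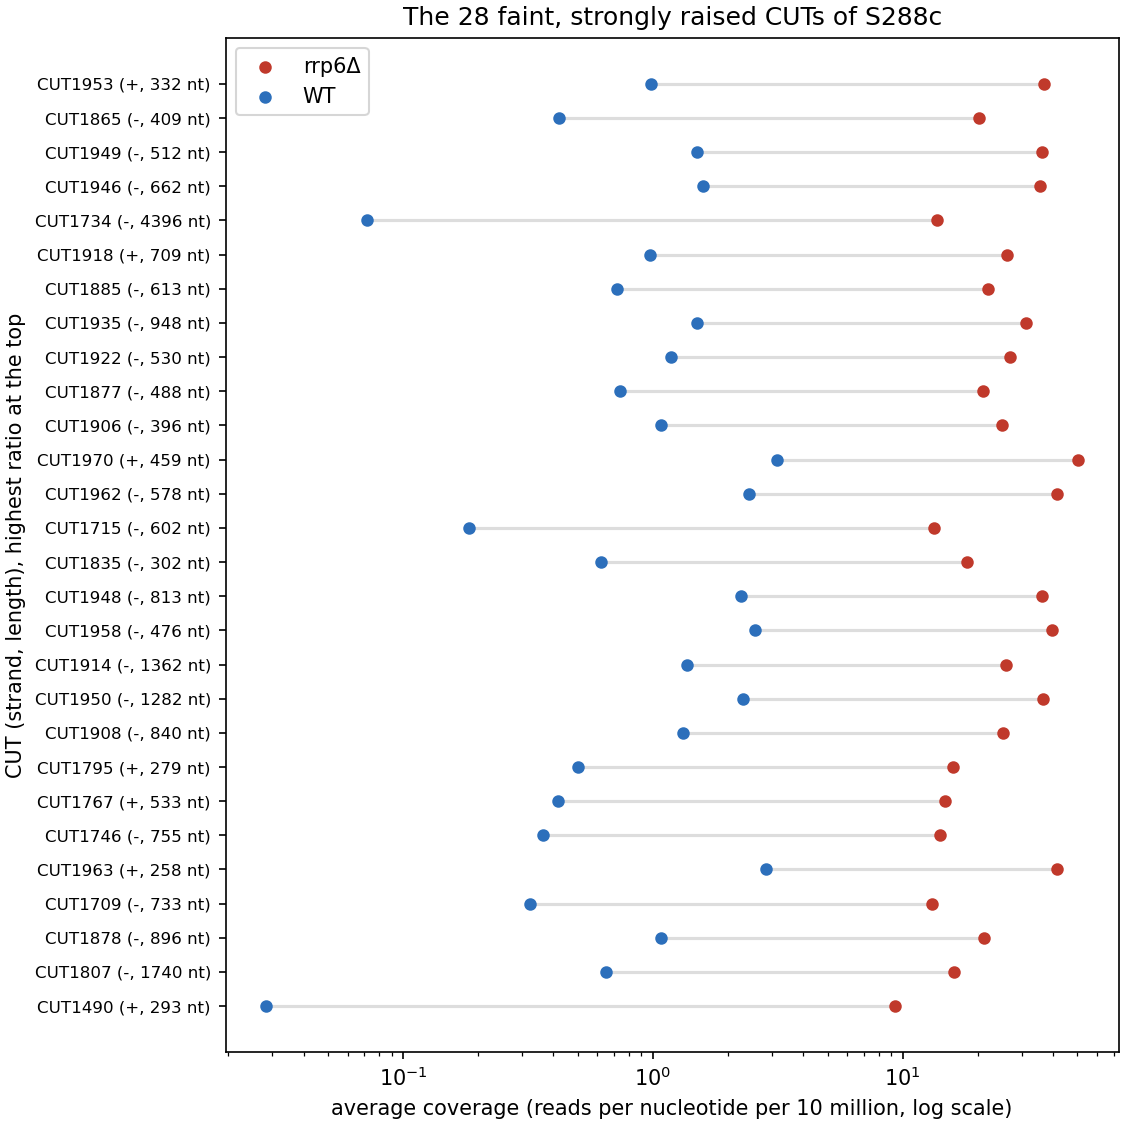
Average coverage in *rrp6*Δ (red) and WT (blue) cells of the 28 faint CUTs of S288c (horizontal, log scale, reads per nucleotide per 10000000 mapped reads), with strand and length beside each name and the highest ratio at the top. Coverage without Rrp6 lies between 9.33 and 50.3 while WT coverage spreads from 0.0283 to 3.13.

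Length, strand, neighbours and conservation were not used by the rule and were compared between faint CUTs and all other CUTs of the same strain. The conserved list, however, rests on CUT calls made from the same coverages. The difference was taken once per strain, and the 8 measures were tested over strains with a two-sided exact sign-flip test. With 4 strains such a test cannot go below 0.125, and with 3 strains not below 0.25, so no measure could pass 0.05. After Benjamini-Hochberg adjustment over the 8 measures, the smallest value was 0.5. The 4 strains share an annotation procedure and many CUTs by descent.

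Faint, strongly raised CUTs were longer than the other CUTs in each strain. Their median length was 590 nt against 397 nt for other CUTs in S288c, 554.5 nt against 434 nt in Σ1278b, 550.5 nt against 393 nt in JAY291 and 514 nt against 480 nt in N17. The mean difference was 126 nt (SD 68.3, 4 strains; exact p = 0.125), and the interquartile ranges of both groups overlapped. The difference was 80.0 nt when only other CUTs with at least the *rrp6*Δ coverage of the lowest member were used, longer then in 3 of 4 strains, and 5.12 nt when 0.1 in place of 1 was added in the ratio, longer then in 2 of 4 strains. Members ran up to 4396 nt in S288c (CUT1734, then CUT1807 with 1740 nt), 1631 nt in Σ1278b (CUT4133, then CUT4057 with 1511 nt), 3316 nt in JAY291 (CUT6359, then CUT6510 with 2628 nt) and 3201 nt in N17 (CUT9047, then CUT9100 with 2661 nt). The shortest members were CUT1963 with 258 nt, CUT4275 with 143 nt, CUT6176 with 109 nt and CUT8790 with 148 nt. Of the 150 members in JAY291, 14 were over 1500 nt and 13 under 200 nt, against 6 and 4 of the 150 in N17. The shares of all CUTs at these lengths were not taken, so these counts are not set against a background.

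The minus strand of the chromosome or contig held more of the faint CUTs. On the plus strand lay 7 of 28 members in S288c (25%, against 49.0% of other CUTs), 49 of 108 in Σ1278b (45.4% against 52.5%), 65 of 150 in JAY291 (43.3% against 50.2%) and 60 of 150 in N17 (40% against 48.6%). The share was lower in 4 of 4 strains, by a mean of -11.6 percentage points (SD 8.27; exact p = 0.125). The S288c share was the lowest, with a 95% Wilson interval of 12.7% to 43.4% that covers counting error only. This interval holds the shares of JAY291 and N17 but not that of Σ1278b. The members' intervals in Σ1278b (36.3% to 54.8%) and JAY291 (35.7% to 51.3%) hold the share of the other CUTs there. The N17 interval (32.5% to 48.0%) ends just below that share. Without S288c the mean difference was -7.53. With 0.1 added in the ratio the mean was -1.38. The plus strand of JAY291 is that of each contig, and by the paper several contigs had been turned to follow the orientation of S288c.

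**Figure D3:**
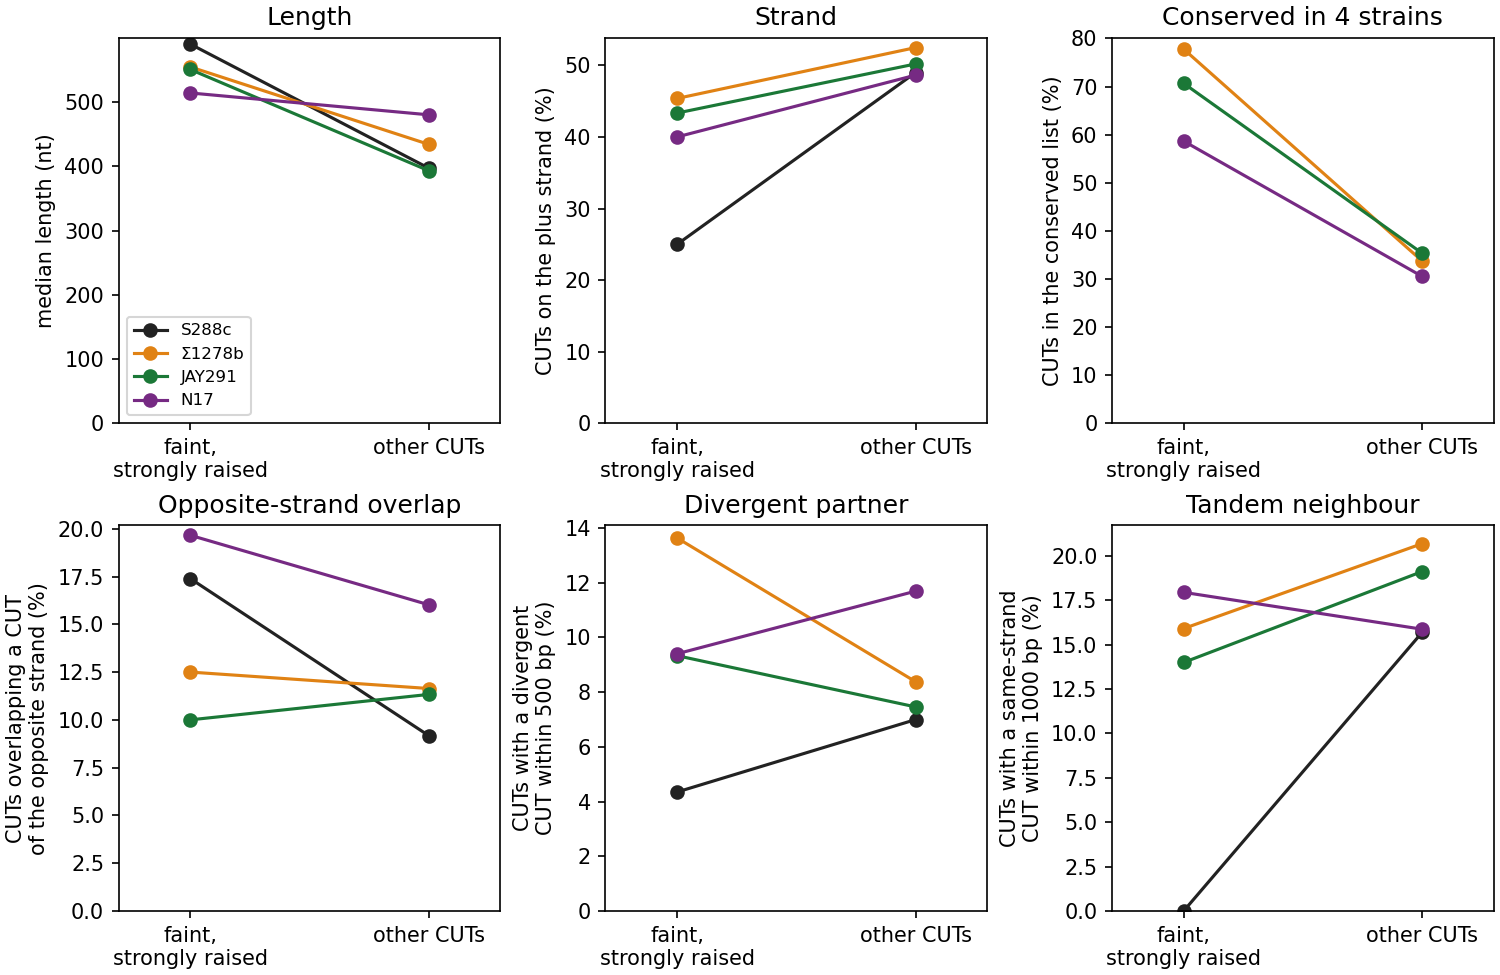
Value of 6 measures for faint, strongly raised CUTs (left of each panel) and other CUTs (right), 1 line per strain: median length in nt, and the percent of CUTs on the plus strand, in the list conserved in 4 strains (3 strains only), overlapping an opposite-strand CUT, with a divergent CUT, or with a same-strand CUT nearby. All lines fall to the right for length and conservation and rise for strand, whereas in the lower panels the lines cross.

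Overlap, divergent and tandem arrangements with other CUTs had no direction shared by all strains. For these measures the CUTs labelled chrXII were left out in S288c, Σ1278b and N17, because this label also holds CUTs of chromosome XIII, which leaves 23, 88 and 117 members. All 150 members of JAY291 were used, spread over 108 contigs with at most 4 on one, so neighbours beyond a contig end are missed, and 3 members were alone on a contig and have no nearest CUT. A CUT on the opposite strand overlapped 4 of 23 members in S288c (17.4%, against 9.17% of other CUTs), 11 of 88 in Σ1278b (12.5% against 11.6%), 15 of 150 in JAY291 (10% against 11.3%) and 23 of 117 in N17 (19.7% against 16.02%). The mean difference of 2.85 percentage points (SD 4.12; exact p = 0.375) was -2.001 against other CUTs of at least the lowest member's *rrp6*Δ coverage and 1.06 without S288c. In N17, where 5.64% of all CUTs were members, 6 of the 23 partners were faint CUTs themselves. These are 3 pairs, each counted from both sides: CUT8745 with CUT9041, CUT8765 with CUT9036 and CUT8766 with CUT9072. In CUT8766 and CUT9072 the *rrp6*Δ coverage was 17.4 and 50.9, against 0.0582 and 1.55 in WT cells. JAY291 had 2 such members among 15, where 6.61% of all CUTs were members. S288c and Σ1278b had 0 among 4 and 11 partners, where 1.36% and 4.51% of all CUTs were members. No test was made on these counts.

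A divergent partner is an opposite-strand CUT that does not overlap and starts at most 500 bp upstream, the arrangement of CUTs that leave one nucleosome-free region in both directions. It was present for 1 of 23 members in S288c (4.35%, against 6.996% of other CUTs), 12 of 88 in Σ1278b (13.6% against 8.38%), 14 of 150 in JAY291 (9.33% against 7.46%) and 11 of 117 in N17 (9.40% against 11.7%). The mean difference was 0.548 percentage points (SD 3.75; exact p = 0.875), and it was -1.02 without Σ1278b. Members themselves were 2 of the 14 partners in JAY291, where 6.61% of all CUTs were members, and 0 of the 1, 12 and 11 partners in S288c, Σ1278b and N17. Their median ratio was 3.999 (S288c), 3.27 (Σ1278b), 4.22 (JAY291) and 2.39 (N17).

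A same-strand CUT within 1000 bp, here a tandem neighbour, was found for 0 of 23 members in S288c (95% Wilson interval up to 14.3%, against 15.7% of other CUTs), 14 of 88 in Σ1278b (15.9% against 20.7%), 21 of 150 in JAY291 (14.0% against 19.1%) and 21 of 117 in N17 (17.9% against 15.9%). The mean difference was -5.88 percentage points (SD 7.34; exact p = 0.25), and it was -2.61 without S288c. Since the authors joined stretches closer than 450 bp, tandem CUTs nearer than that are not in the annotation.

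The nearest CUT lay about as far from faint CUTs as from other CUTs, and its ratio was close to that of other neighbours. The median gap to it was 1143 bp against 1640 bp for other CUTs in S288c, 1314.5 bp against 1206 bp in Σ1278b, 1494 bp against 1267 bp in JAY291 and 1027 bp against 1023 bp in N17. The mean difference was -39.4 bp (SD 318; exact p = 1) and 113 bp without S288c. The median ratio of the nearest CUT was 3.68 against 3.36 for the nearest to other CUTs in S288c, 3.36 against 3.57 in Σ1278b, 4.337 against 4.339 in JAY291 and 3.78 against 3.55 in N17. The log2 ratio of the nearest CUT differed from that of other CUTs' nearest by a mean of 0.03 (SD 0.10; exact p = 0.5), which was 0.002 without S288c and 0.07 without Σ1278b. The nearest CUT was itself a faint CUT for 2 members in S288c (8.70%, against 1.12% of other CUTs), 6 in Σ1278b (6.82% against 3.83%), 16 of the 147 in JAY291 that had another CUT on their contig (10.9% against 6.02%) and 7 in N17 (5.98% against 5.12%). The 2 in S288c are CUT1490 and CUT1948, 597 bp apart at either end of *ATP16*, a subunit gene of the mitochondrial ATP synthase. More than 5 kb separated 3 of 23 members from any other CUT in S288c (13.0%, against 15.1% of other CUTs), 12 of 88 in Σ1278b (13.6% against 10.5%), 22 of 147 in JAY291 (15.0% against 13.3%) and 15 of 117 in N17 (12.8% against 8.71%).

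Faint, strongly raised CUTs were listed as conserved in all 4 strains more often than other CUTs. The study's list holds 855 CUTs matched between the strains, and all 855 positions were found in the annotations of Σ1278b, JAY291 and N17. The S288c coordinates of the list were not used here. Listed were 84 of 108 members in Σ1278b (77.8%, against 33.7% of other CUTs), 106 of 150 in JAY291 (70.7% against 35.4%) and 88 of 150 in N17 (58.7% against 30.5%). The mean difference was 35.8 percentage points (SD 7.97, 3 strains; exact p = 0.25, the smallest possible) and stood above 0 in 3 of 3 strains. It was 33.4 against other CUTs with at least the lowest member's *rrp6*Δ coverage, and 22.2 with 0.1 added in the ratio. The authors built the list from CUT calls in these same libraries. By the paper, CUTs that aligned poorly or not at all between the 4 genomes were left out of it, and some regions were edited by hand. The shares here are over all CUTs of a strain, whether aligned or not. A call rests on the *rrp6*Δ and WT coverages that the rule also used, and a listed CUT needed a call in each strain. Listing is therefore not independent of the rule. A trait of the members cannot be told apart from easier detection of CUTs of high *rrp6*Δ coverage or from better alignment between the genomes. The other CUTs with at least the lowest member's coverage were not matched to the members in level.

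A CUT that was faint and strongly raised in one strain tended to be so in another, most of all between Σ1278b and JAY291. The values of the counterpart come from libraries that the rule did not use for the member. Among all 855 conserved CUTs the whole rule was met by 9.82% when measured in Σ1278b, 12.4% when measured in JAY291 and 10.3% when measured in N17. Of the 84 conserved members of Σ1278b, 54 (64.3%) met the rule in JAY291 and 24 (28.6%) in N17. Of the 106 of JAY291, 54 (50.9%) met it in Σ1278b and 26 (24.5%) in N17. Of the 88 of N17, 24 (27.3%) met it in Σ1278b and 26 (29.5%) in JAY291. The shares with N17 were above those of all conserved CUTs but below those between the 2 *S. cerevisiae* strains. No test was made over CUTs.

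The WT limit removed few counterparts, and the median ratio of the counterparts lay above that of all conserved CUTs in each pair. By the ratio alone, whatever the WT coverage, 10 was reached by 10.2% of conserved CUTs with Σ1278b values, 13.2% with JAY291 values and 11.6% with N17 values. For counterparts of Σ1278b members it was 56 of 84 in JAY291 and 27 of 84 in N17, for those of JAY291 members 54 of 106 in Σ1278b and 29 of 106 in N17, and for those of N17 members 24 of 88 in Σ1278b and 28 of 88 in JAY291. The median ratio of the counterparts of Σ1278b members was 12.7 in JAY291, against 5.13 over all conserved CUTs there, and 8.01 in N17, against 4.45. Counterparts of JAY291 members had a median of 10.1 in Σ1278b, against 4.68, and 6.51 in N17, against 4.45. Counterparts of N17 members had 6.87 in Σ1278b, against 4.68, and 7.95 in JAY291, against 5.13.

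**Figure D4:**
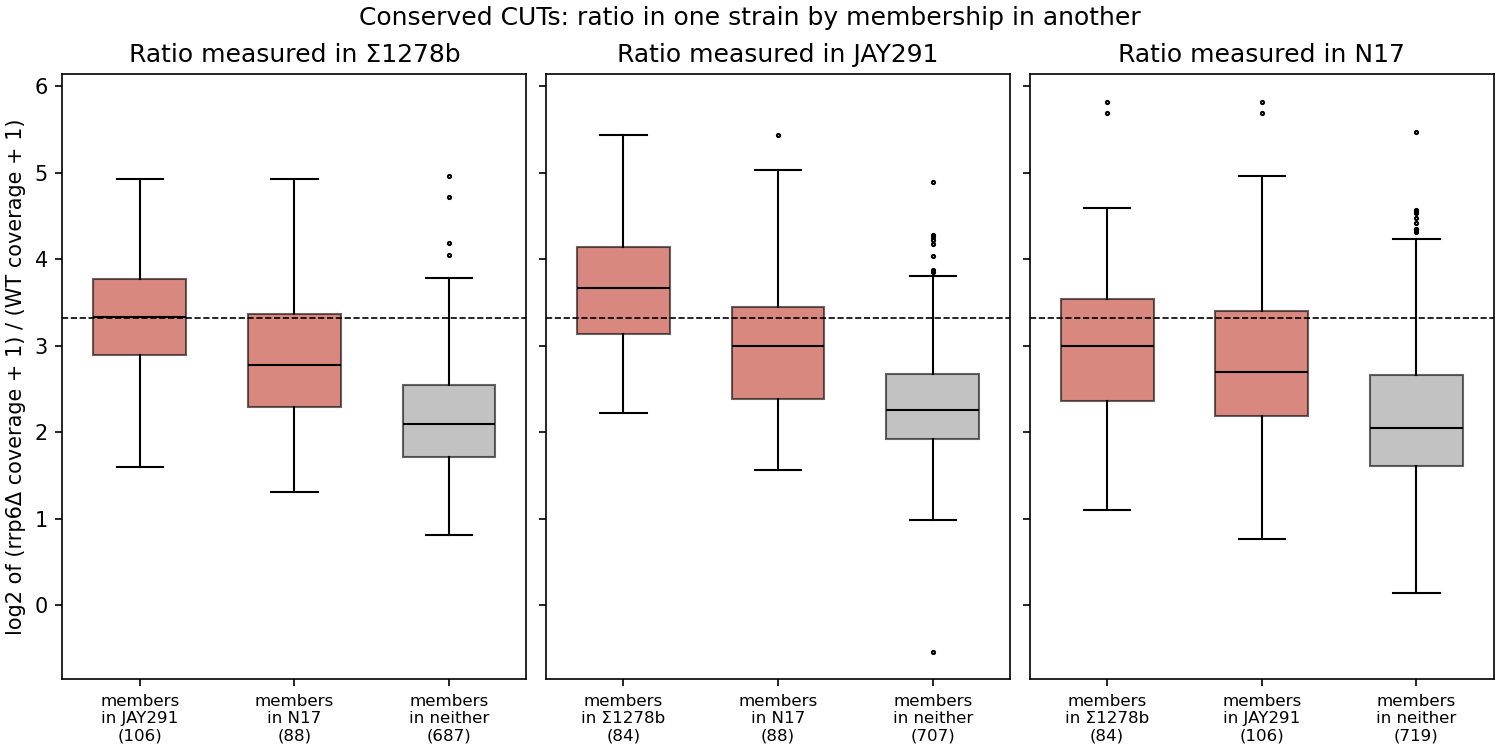
Box plots of the log2 ratio of conserved CUTs measured in Σ1278b, JAY291 and N17 (1 panel each), for CUTs that were faint, strongly raised members in another strain (red) and for CUTs that were members in neither other strain (grey). Boxes span the quartiles, lines the medians, whiskers 1.5 interquartile ranges, points lie beyond, and the dashed line marks a ratio of 10; the red medians lie above the grey ones, which are 2.10 (Σ1278b), 2.26 (JAY291) and 2.05 (N17).

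In all, 191 of the 855 conserved CUTs were members in at least 1 of these 3 strains. Of these, 121 were members in 1 strain (Σ1278b for 23, JAY291 for 43 and N17 for 55), 53 in 2 strains and 17 in 3. Among the 53, 37 were shared by Σ1278b and JAY291, 7 by Σ1278b and N17 and 9 by JAY291 and N17. The 5 with the highest lowest ratio illustrate how far levels varied. CUT4269 of Σ1278b had 37.5 in *rrp6*Δ cells and 1.01 in WT cells, its counterpart CUT6567 in JAY291 had 56.3 in *rrp6*Δ cells and 0.753 in WT cells, and CUT9213 in N17 had 245 in *rrp6*Δ cells and 3.35 in WT cells. This CUT reached its highest level in N17, and its ratio was 19.2, 32.7 and 56.5. CUT4270 had ratios of 30.5 in Σ1278b, 17.7 in JAY291 (CUT6454) and 18.7 in N17 (CUT8867). CUT4338 was even across strains, with 19.9, 16.4 (CUT6558) and 20.3 (CUT9075). CUT4228 had 15.6, 19.2 (CUT6573) and 13.8 (CUT8662), and CUT4180 had 21.4, 13.1 (CUT6210) and 13.3 (CUT8822).

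The S288c faint CUTs could be set against genes, for the 23 members that do not carry the chrXII label. All of the following concerns 1 strain and is a description. Antisense means that at least 25% of the CUT lies over a coding sequence of the other strand, and divergent that it starts at most 500 bp upstream of a coding sequence on the other strand. By this measure 14 of 23 were antisense (60.9%, against 57.0% of the 1701 other CUTs) and 13 were divergent from a gene (56.5% against 54.2%). Against the 422 other CUTs with at least the lowest member's *rrp6*Δ coverage, antisense CUTs were 37.7% and divergent ones 51.9%. In 8 members (34.8%, against 33.2% of other CUTs) both held, so that the CUT left the promoter of one gene and ran into the end of the gene before it.

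The genes at these 8 CUTs had varied functions. CUT1949 (VIII:69584-70095, minus strand) started 181 bp upstream of *YHL017W* and 25 bp past the end of *MCO14*, which it covered in full. CUT1877 (VII:337155-337642, minus) started 264 bp upstream of *NUP145*, a nuclear pore protein, and 3 bp past the end of *SPC105*, a kinetochore protein. CUT1885 (IV:1321436-1322048, minus) started 157 bp upstream of *RPN9*, a subunit of the proteasome lid, and had 82.5% of its length over *SNX41*, a sorting nexin. CUT1958 was antisense to *UPC2*, a sterol-responsive transcription factor, CUT1746 to *HAP5*, a subunit of the CCAAT-binding complex, CUT1878 to *NUT2*, a Mediator subunit, and CUT1914 to *PRE1*, a proteasome core subunit. CUT1807 was antisense over the whole of *MTG2*, a mitochondrial GTPase, and started 212 bp upstream of *DBP8*, an RNA helicase of ribosome assembly.

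CUTs that were antisense only included CUT1922 (X:98958-99487, minus), with 26.7 in *rrp6*Δ cells and 1.19 in WT cells, which started 20 bp past the end of *CPS1*, a vacuolar carboxypeptidase. CUT1908 started 13 bp past the end of *IBA57*, a mitochondrial protein of iron-sulphur cluster assembly, and CUT1767 started 12 bp inside the end of *SWC5*, a subunit of the SWR1 complex. Among CUTs that were divergent only, CUT1906 (IV:784296-784691, minus) started 180 bp upstream of *TRM82*, a subunit of a tRNA methyltransferase, and CUT1970 (II:326244-326702, plus) 185 bp upstream of *TCM62*, a mitochondrial chaperone. CUT1970 had the highest *rrp6*Δ coverage in S288c, 50.3 against 3.13 in WT cells. CUT1865 (VII:739313-739721, minus) started 223 bp upstream of *ASN2*, an asparagine synthetase.

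In 10 of 23 the start lay within 100 bp of the end of a coding sequence on the other strand (43.5%, against 29.6% of other CUTs and 20.6% of the 422 with at least the lowest member's *rrp6*Δ coverage). This distance was chosen after the values were seen. The 95% Wilson interval of the members' share was 25.6% to 63.2% and holds the 29.6%.

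**Figure D5:**
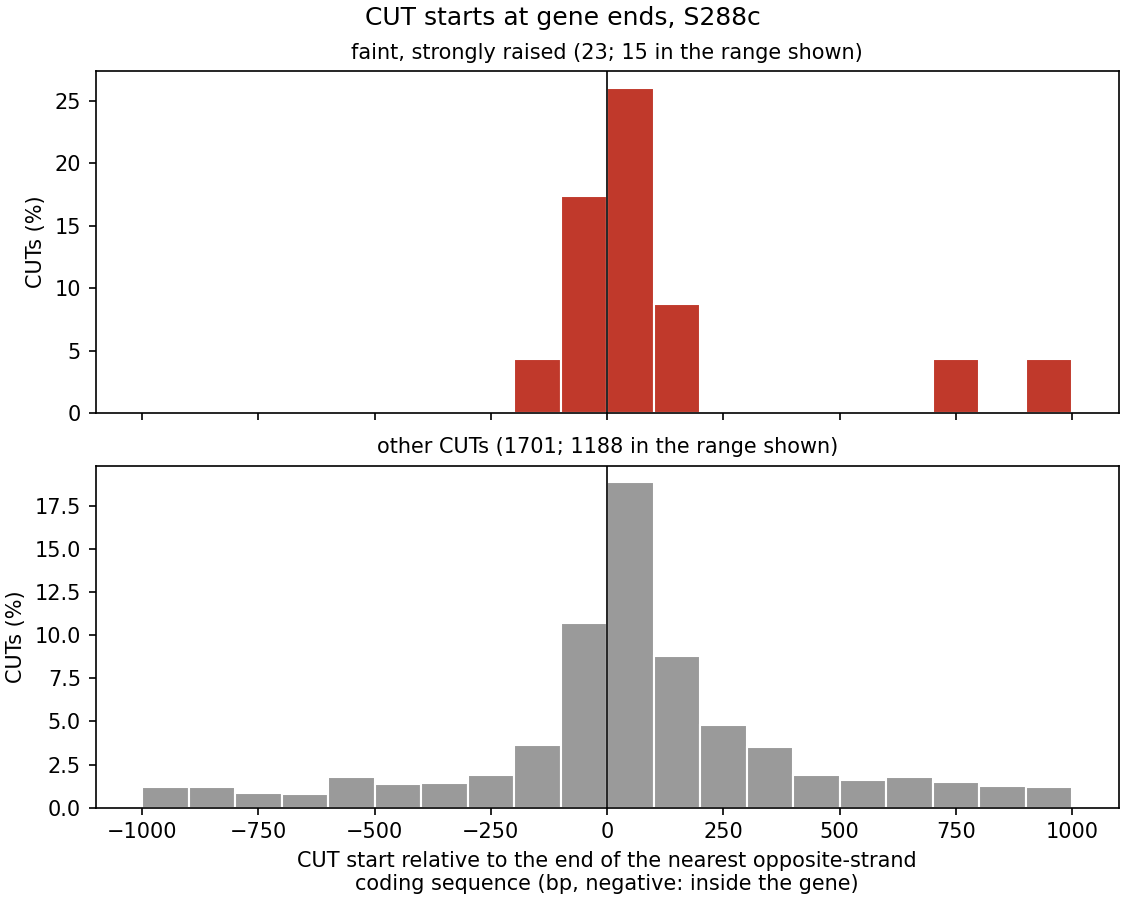
Percent of S288c CUTs (vertical) by the distance of the CUT start from the end of the nearest opposite-strand coding sequence (horizontal, bp, in steps of 100). The 23 faint, strongly raised CUTs are above and the 1701 other CUTs below. Negative values lie before that end, either inside the gene or upstream of its start, although the axis label names only the inside. In the range shown are 15 of the 23 and 1188 of the 1701, and both peak at the gene end.

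A tRNA gene lay within 300 bp of 5 of 23 members (21.7%, against 5.82% of other CUTs and 8.29% of the 422), a count also chosen after the values were seen. These were CUT1946 (62 bp away), CUT1795 (68 bp), CUT1914 (69 bp), CUT1970 (90 bp) and CUT1865 (118 bp). None of the 23 overlapped the tRNA gene itself, while 30 of the 1701 other CUTs overlapped one. The interval of the members' share was 9.66% to 41.9%.

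Of the 23, 3 had no antisense or divergent gene and no sense overlap. CUT1953 (XIV:500510-500841, plus), the member of highest ratio, started 254 bp past the end of *RPL9B* on the same strand. *RPL9B* encodes a ribosomal protein and is a known case in which Nrd1-dependent termination competes with poly(A) site cleavage. CUT1946 (VII:73964-74625, minus; 35.3 in *rrp6*Δ cells, 1.58 in WT cells) lay beside a tRNA gene of its own strand, and CUT1795 began 44 bp inside *PRP6*, a splicing factor gene, on the other strand. Within 20 kb of a chromosome end was only CUT1950, antisense to *DLD3*, a lactate dehydrogenase gene.

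At CUT1734 the S288c strains themselves differ in genotype, and 2 other members lie near genes tied to mating type. CUT1734 (II:469590-473985, minus) runs in sense over *LYS2*, which covers 95.1% of it and is deleted in the WT strain. Its coverage was 13.7 in *rrp6*Δ cells and 0.0720 in WT cells, so the deletion and the lack of Rrp6 cannot be told apart, and it is the longest S288c member. CUT1963 (III:201131-201388, plus) begins 162 bp past *MATALPHA1*, a gene of the mating type locus, with 41.5 in *rrp6*Δ cells and 2.84 in WT cells. Of its length, 83.3% lies antisense over *TAF2*, past whose end it starts by 43 bp, and 43.8% lies in sense over *YCR041W*. CUT1709 begins 541 bp upstream of *MFA2*, an a-factor gene expressed in MATa cells, with 13.1 in *rrp6*Δ cells and 0.323 in WT cells. Without these 3 CUTs, 25 members remained in S288c. The mean length difference over strains was then 123 nt, that in the plus-strand share -11.9 percentage points and that in divergent partners -0.539. Like differences exist between the Σ1278b strains, whose members were not set against genes.

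No faint CUT of S288c was found at the listed pathway genes, and 1 was found at a marker gene. None of 13 genes of nucleotide synthesis, 19 of phosphate uptake and storage, 5 of galactose use, 22 of meiosis, 19 of RNA decay and termination and 10 on a list of loci from the study had a member in sense, antisense or divergent position. Of 15 marker and mating genes, 1 did (*LYS2*). The list of loci from the study is not complete, and *YNL146C-A*, which the study also names, was overlapped in sense by CUT1709 over 26.6% of the CUT. This compares with 30 of all 5010 protein-coding genes (0.599%), so counts of 0 in lists of this size are near the background. Other CUTs were placed at 1788 of the 5010 genes (35.7%), among them *NRD1*, *URA8*, *PHO5* and *IME1*.

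The motifs of the Nrd1-Nab3-Sen1 complex were searched in the first 100 nt of the 23 members on the sense strand. TCTT occurred in 17 (73.9%, against 55.8% of other CUTs and 49.98% of 201360 windows of this length from both strands of the genome). CTTG occurred in 12 (52.2% against 45.0%, genome 34.9%), GTAA in 8 (34.8% against 40.4%, genome 34.8%) and GTAG in 6 (26.1% against 33.7%, genome 22.9%). No test was made on these counts of 23 CUTs. On the opposite strand the shares were 30.4% against 47.1% for TCTT, 30.4% against 29.3% for CTTG, 43.5% against 35.4% for GTAA and 21.7% against 20.2% for GTAG. All 4 motifs together gave 3.09 ± 2.23 matches in members (SD, 23 CUTs) and 2.44 ± 1.75 in other CUTs (SD, 1701 CUTs), a difference smaller than the spread within either group. Over whole CUTs there were 3.03 matches per 100 nt in members and 2.76 in other CUTs. The 100 bp upstream of the start were 66.8% A or T in members and 64.3% in other CUTs.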

How the data were processed

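The authors mapped reads uniquely to each strain's genome (Bowtie 0.12.7 and bedtools 2.16.2 are named in the submitters' processing notes). They scaled coverage to 10000000 mapped reads, corrected it for first-nucleotide bias and mappability, averaged 2 replicates and called CUTs. Calls at snRNAs, snoRNAs and rRNAs and hits expected from genotype differences were removed. The rest were joined when closer than 450 bp, and those of low average *rrp6*Δ coverage or under 100 nt were dropped. The deposited signal is this coverage, averaged over each CUT. A further deposited column, an average fold change, is the authors' own comparison of *rrp6*Δ with WT and was not used, so the ratio is that of average coverages with 1 added. Depth per library was not used here. Length is stop minus start, and printed starts count from 1. Genes came from the R64 annotation in RefSeq.

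The members and lists were chosen with earlier results of these data known. Named CUTs were, per strain, the 3 of highest ratio, the 2 longest, the shortest and the 2 on each side of the ratio threshold. In S288c they were also the 10 placed members of highest ratio, any mostly in sense over a feature, and any at a listed gene, and in the conserved list the 5 of highest lowest ratio among members in 3 strains. Other S288c members were named after their values were seen. Differences per strain were tested with exact sign-flip tests, shares have 95% Wilson intervals, and the functions were tested on simulated data. Tables were handled with pandas 2.3.3 and NumPy 2.4.6 in Python 3.11.15, intervals came from SciPy 1.17.1, and figures were drawn with matplotlib 3.10.9.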

Additional observations from a re-analysis of the deposited data

Results flagged for a closer look

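In S288c the share of faint CUTs on the plus strand differed from that of other CUTs by -24.0 percentage points, far from the differences of -7.10 in Σ1278b, -6.86 in JAY291 and -8.63 in N17. It was marked because the gap to the nearest strain was large for the range of the 4 strains. For 4 values of like error and 1 measure, chance alone does this in about 1 of 20 groups. That rate does not hold here, because S288c has 28 members against 108, 150 and 150 and because 8 measures were compared. It rests on 7 of 28 CUTs.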

How the results depend on the processing

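The number of faint CUTs moved with the threshold. In S288c, Σ1278b, JAY291 and N17 it was 80, 195, 274 and 248 at a ratio of 8, and 14, 66 and 99 in S288c, Σ1278b and N17 at a ratio of 12. With 0.1 added in place of 1 it was 512, 866, 970 and 859. The mean differences in length, strand, tandem neighbours and conservation kept their sign in all alternatives run, but single strains did not always keep theirs. With 0.1 added, members were longer in 2 of 4 strains, by a mean of 5.12 nt. Tandem neighbours were then more frequent among members in 2 of 4 strains. They were so in 2 of 4 strains within 600 bp too, where the mean was -1.44 points. The distance to the nearest CUT turned to 137 bp at a ratio of 8, 291 bp with 0.1 added, 350 bp without the 25% of CUTs of lowest *rrp6*Δ coverage and 232 bp against other CUTs of at least the lowest member's *rrp6*Δ coverage. The share with a divergent partner turned to -0.381 points at a WT limit of 2, -2.21 with 0.1 added, -2.76 against those other CUTs, -0.0833 with the chrXII label kept, -0.631 within 1000 bp and -0.539 without the 3 S288c CUTs near *LYS2*, *MATALPHA1* and *MFA2*. Opposite-strand overlap turned to -2.80 with 0.1 added and -2.001 against those other CUTs, and the log2 ratio of the nearest CUT to -0.0228 with 0.1 added and -0.0062 against them. The cause was not tested. Counterparts in N17 of Σ1278b members met the rule for 39.3% at a ratio of 8 (17.2% of all conserved CUTs), and those in Σ1278b of N17 members for 37.4% (16.4%). At a ratio of 12 it was 17.1% (7.02%) for JAY291 members in N17 and 20% (8.19%) for N17 members in JAY291. With each strain left out in turn, the mean difference ranged over 104 to 157 nt for length, -13.2 to -7.53 points for strand, 1.06 to 4.24 for opposite-strand overlap, -1.02 to 1.61 for divergent partners, -8.53 to -2.61 for tandem neighbours, -128 to 113 bp for distance, 0.002 to 0.07 for the log2 ratio and 31.7 to 39.7 points for conservation. Leaving out strains, the thresholds of 8 and 12 for counterparts and the 3 CUTs were added after seeing the data. No paired analysis was possible because the columns are averages over replicates, and no replicate could be left out for the same reason. A selection by the deposited fold change was not run, since that column is the authors' own comparison.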
